A study of Arabidopsis thaliana with 12 samples.

Results

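Arsenate and low oxygen were given to Arabidopsis roots alone and together, and the values below ask for which genes the joint change departed from the sum of the 2 single changes. Whole roots of Arabidopsis thaliana accession Col-0, the common laboratory wild type, were hybridised to 12 Affymetrix arrays in 4 groups of 3. The groups were roots given 250 µM arsenate in hypoxic nutrient medium (combination), roots given 250 µM arsenate without hypoxia (arsenic), roots in hypoxic medium without arsenate (hypoxia) and untreated roots (control). All plants were grown in hydroponic culture and harvested at an age of 39 days after 7 days of treatment, and the series describes the replicates as independent. How much oxygen the hypoxic medium held is not stated, and no transgene or mutant was used. For each of 16550 genes, taken from 38408 rows of the deposited table, the interaction was the combination mean minus the arsenic mean minus the hypoxia mean plus the control mean, on the log2 scale. It is 0 where the fold changes of both treatments multiply. A negative interaction means that the combination lay below the additive expectation (arsenic plus hypoxia minus control) and a positive one that it lay above.

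Arsenate enters root cells through phosphate transporters, is reduced to arsenite, and burdens thiols, mitochondria and protein folding. Plant cells answer with glutathione S-transferases and glycosyltransferases that tag foreign compounds, with chaperones, and with genes that signal mitochondrial damage to the nucleus. Low oxygen stabilises transcription factors that switch on fermentation and other core hypoxia genes, and it limits respiration, growth and cell wall synthesis.

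The median log2 signal of the arrays ran from 4.72 to 4.99, and across genes the correlation was 0.972 to 0.991 between arrays of 1 group, against 0.924 to 0.982 between groups. Of 31 root tissue markers 5 were measured (EXPA7, EXPA18, GUT2, PYK10 and XTH26), and their mean signal per array ran from 5.95 to 6.31 in the combination, 7.02 to 7.30 with arsenate, 6.28 to 7.12 in hypoxia and 8.17 to 8.49 in the control. All 5 fell in each treated group against the control, and none passed for the interaction (median 0.61). Of 19 green tissue markers 2 were measured (PSAN and RCA), at a mean of 3.88 to 4.74 in the combination, 4.15 to 4.27 with arsenate, 4.49 to 4.68 in hypoxia and 4.30 to 4.69 in the control. In whole roots, fewer cells of a type and less RNA per cell cannot be told apart.

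The interaction passed an adjusted p of 0.05 (limma, Benjamini-Hochberg over all genes) for 457 genes, 2.76% of those tested. It was negative for 236 genes (1.43%) and positive for 221 (1.34%). The median interaction was -1.76 among the negative genes and 1.33 among the positive ones, against 0.01 over all genes. The smallest passing interaction was 0.70 in size. Most of these genes carry only a locus code in the reference gene table, some of them with a name in use elsewhere, such as UPOX: 387 of 14745 such genes passed (2.62%; 195 negative and 192 positive), as did 70 of 1805 genes with a symbol (3.88%; 41 negative and 29 positive). Left-out arrays moved the total from 213 to 502 genes. It fell by more than 1.5 times without control array 2 (213), arsenic array 3 (225), control array 3 (252), combination array 2 (252), arsenic array 1 (255) or combination array 3 (278), and 191 genes passed whichever array was left out (112 negative and 79 positive). Array weights raised the total to 886 genes. Fitting and adjusting over all rows of the table lowered it to 244, and leaving out limma's moderation of the variance lowered it to 196.

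The passing genes were then sorted by what each single treatment did against the control. The combination changed 4578 genes (27.7%; 13% rose and 14.6% fell), arsenate alone 2965 (17.9%; 8.34% rose and 9.58% fell) and hypoxia alone 4060 (24.5%; 10.8% rose and 13.7% fell). These comparisons use the same arrays as the interaction, so they describe its members and lend it no separate support. Of the 236 negative genes, 146 (61.9%) had risen with each single treatment, 68 (28.8%) had risen with arsenate and did not pass under hypoxia, and 14 had risen under hypoxia and did not pass with arsenate. Of the 221 positive genes, 181 (81.9%) had fallen with each single treatment, 18 had fallen with arsenate and did not pass under hypoxia, and 10 had fallen under hypoxia and did not pass with arsenate. No gene with a negative interaction had fallen with arsenate, and no gene with a positive interaction had risen with either treatment. For these classes the departure ran against the single changes. The class counts depended on the scale: with signals not logged, where additivity means that signals and not fold changes add, 56 passing genes had risen with both treatments, 129 had risen with arsenate alone and 432 had fallen with both.

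**Figure D1:**
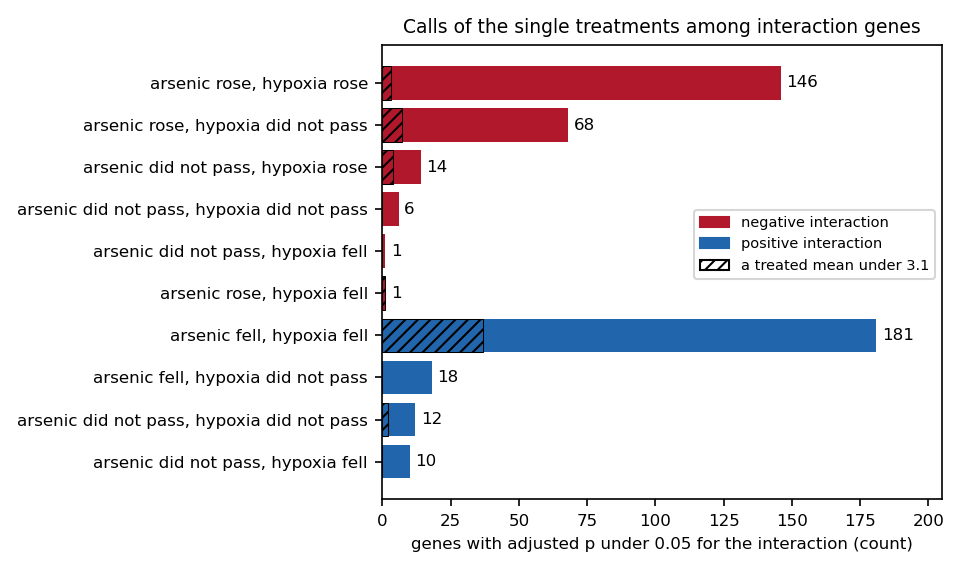
Counts of genes with an adjusted p under 0.05 for the interaction (x axis), by the calls of arsenic against control and hypoxia against control (y axis), with genes that have a treated mean under 3.1 hatched. The 146 genes that rose with both treatments and the 181 that fell with both are the longest bars.

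A joint change smaller than the sum was usual among genes that both treatments moved the same way. Of 451 genes that rose with each treatment, 444 had an interaction below 0 (median -0.92), and 146 of them passed (32.4%). Of 882 genes that fell with each, 863 had one above 0 (median 0.81), and 181 passed (20.5%). Both singles being on the same side of the shared control arrays fixes part of that sign, so the counts are a description. The combination mean lay beyond both single means for 178 of the 451 genes, between them for 190 and short of both for 83. Set against each single treatment by its own test, the combination differed from neither for 344 of them. Among the 882 genes that fell, the combination lay beyond both single means for 557, between them for 220 and short of both for 105, and differed from neither for 598. The median of the combination mean minus the farther single mean was -0.08 for the genes that rose, short of that single mean, and -0.11 for those that fell, beyond it.

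**Figure D2:**
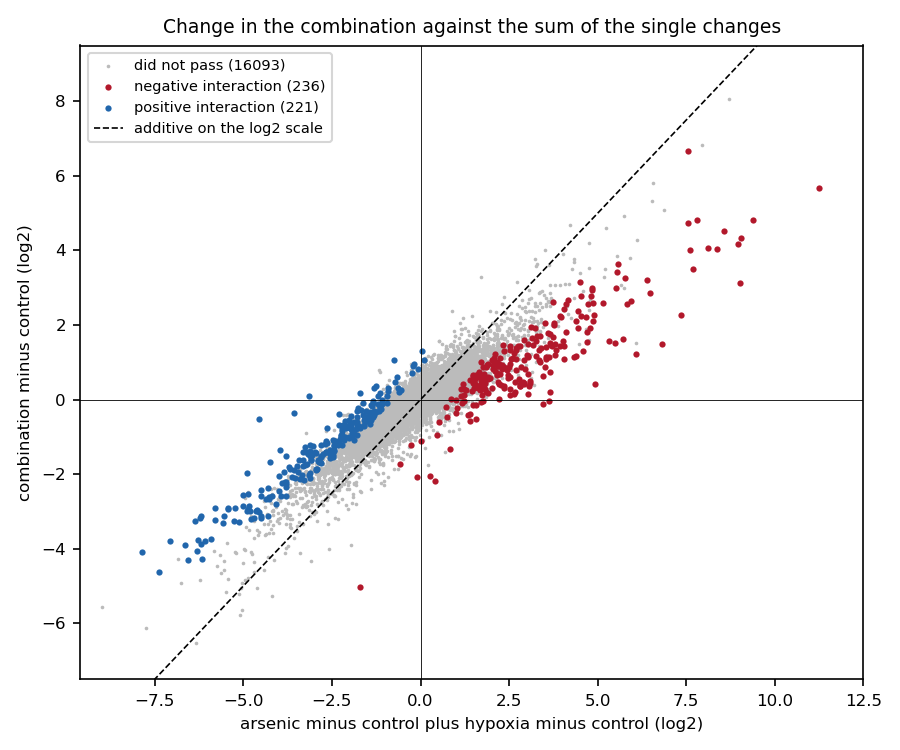
Change in the combination against control (y axis, log2) plotted over the sum of the single changes against control (x axis, log2), 1 point per gene, with the genes that passed for the interaction coloured by sign. Points on the dashed diagonal are additive, the 236 negative genes lie below it, most of them right of 0, and the 221 positive genes lie above it, most of them left of 0.

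The genes that moved farthest below their additive expectation included those that report mitochondrial stress. The list of the mitochondrial retrograde response, by which damaged mitochondria alter nuclear transcription, had 16 entries and 5 measured genes. Of these, 4 passed with a negative interaction and none with a positive one (list median -3.59). Against control 3 rose in the combination, all 5 with arsenate alone and 3 under hypoxia alone. UPOX (AT2G21640), whose protein sits in mitochondria and which oxidative stress induces, had log2 signals of 8.46, 8.13 and 7.92 in the combination, 9.44, 8.71 and 9.97 with arsenate, 6.90, 6.42 and 6.33 in hypoxia and 4.32, 4.20 and 3.96 in the control. The groups did not overlap, and the combination stood between the single treatments while its additive expectation was 11.76. The interaction was -3.59 (SE 0.39, adjusted p = 0.000685), 12.1-fold below that expectation. Arsenate raised UPOX by 1.62 in hypoxic roots (adjusted p = 0.00966), against 5.21 in roots that were not hypoxic (adjusted p = 3.91e-07).

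AT2G41730, which had the most negative interaction of all genes tested, had signals of 5.55, 4.31 and 4.93 in the combination, 6.55, 6.11 and 7.65 with arsenate, 6.63, 5.10 and 5.94 in hypoxia and 1.68, 1.94 and 1.83 in the control. Every treated array lay far above the control arrays, and the combination arrays were lower than the arsenic arrays without overlap. The control mean of AT2G41730 was under 3.1, as for 29 of the negative genes (12.3%), against 25.7% of all genes. Its interaction was -5.91 (SE 0.60, adjusted p = 0.000432). NDB2 (AT4G05020), an external NADH dehydrogenase of the alternative respiratory chain, had signals of 7.49, 7.61 and 7.42 in the combination, 10.08, 9.48 and 10.09 with arsenate, 7.62, 6.60 and 6.32 in hypoxia and 7.29, 7.23 and 7.04 in the control. The arsenic arrays stood far above the rest. The change with arsenate was 0.66 with hypoxia (adjusted p = 0.218), against 2.70 without it (adjusted p = 4.51e-05), with an interaction of -2.04 (SE 0.39, adjusted p = 0.0166). The call of NDB2 was lost without arsenic array 3. NDB4 (AT2G20800), a relative of NDB2 outside the list, had an interaction of -2.14 (adjusted p = 0.0255). The fifth list member, AT12CYS-2 (AT5G09570), had an interaction of -1.16 (adjusted p = 0.116).

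Chaperone genes fell short of the sum in the same direction. Of 11 measured genes of the heat shock and chaperone list, 6 passed with a negative interaction and none with a positive one (median -2.54), and 7 rose in the combination, 9 with arsenate alone and 6 under hypoxia alone. HSP23.5 (AT5G51440), a small heat shock protein of mitochondria that is also in the retrograde list, had signals of 8.18, 8.66 and 8.12 in the combination, 9.15, 8.92 and 9.74 with arsenate, 8.11, 6.55 and 6.78 in hypoxia and 3.06, 3.47 and 4.00 in the control. Each treated array was above each control array, and the combination was 4.58 below its additive expectation of 12.90 (SE 0.53, adjusted p = 0.000965). That expectation exceeds 12.8, the highest signal of any gene on any array, as was so for 8 of the negative genes and 9 of all genes. HSP17.8 (AT1G07400), a cytosolic small heat shock protein, had signals of 6.82, 7.29 and 7.66 in the combination, 9.16, 8.26 and 9.37 with arsenate, 7.58, 5.28 and 4.78 in hypoxia and 3.68, 2.60 and 3.37 in the control. Its interaction was -4.34 (SE 0.82, adjusted p = 0.0139).

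The other 4 chaperone-list genes were named after their values were seen, to account for the count. They were the HSP70 nucleotide exchange factor Fes1A (-2.56, adjusted p = 0.0370), the HSP70 and HSP90 co-chaperone Hop3 (-2.54, adjusted p = 0.0192), the transcription factor DREB2C (-2.52, adjusted p = 0.0288) and the peroxisomal small heat shock protein HSP15.7 (-1.82, adjusted p = 0.0217). In hypoxia, array 1 was the highest of the 3 for HSP23.5, HSP17.8, NDB2 and all 4 of these. Without it the interactions of HSP23.5 and HSP17.8 were -4.09 and -3.49, and both passed. Fes1A kept its call in 3 of the 12 fits that left out an array, DREB2C in 5, Hop3 in 9 and HSP15.7 in 10.

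**Figure D3:**
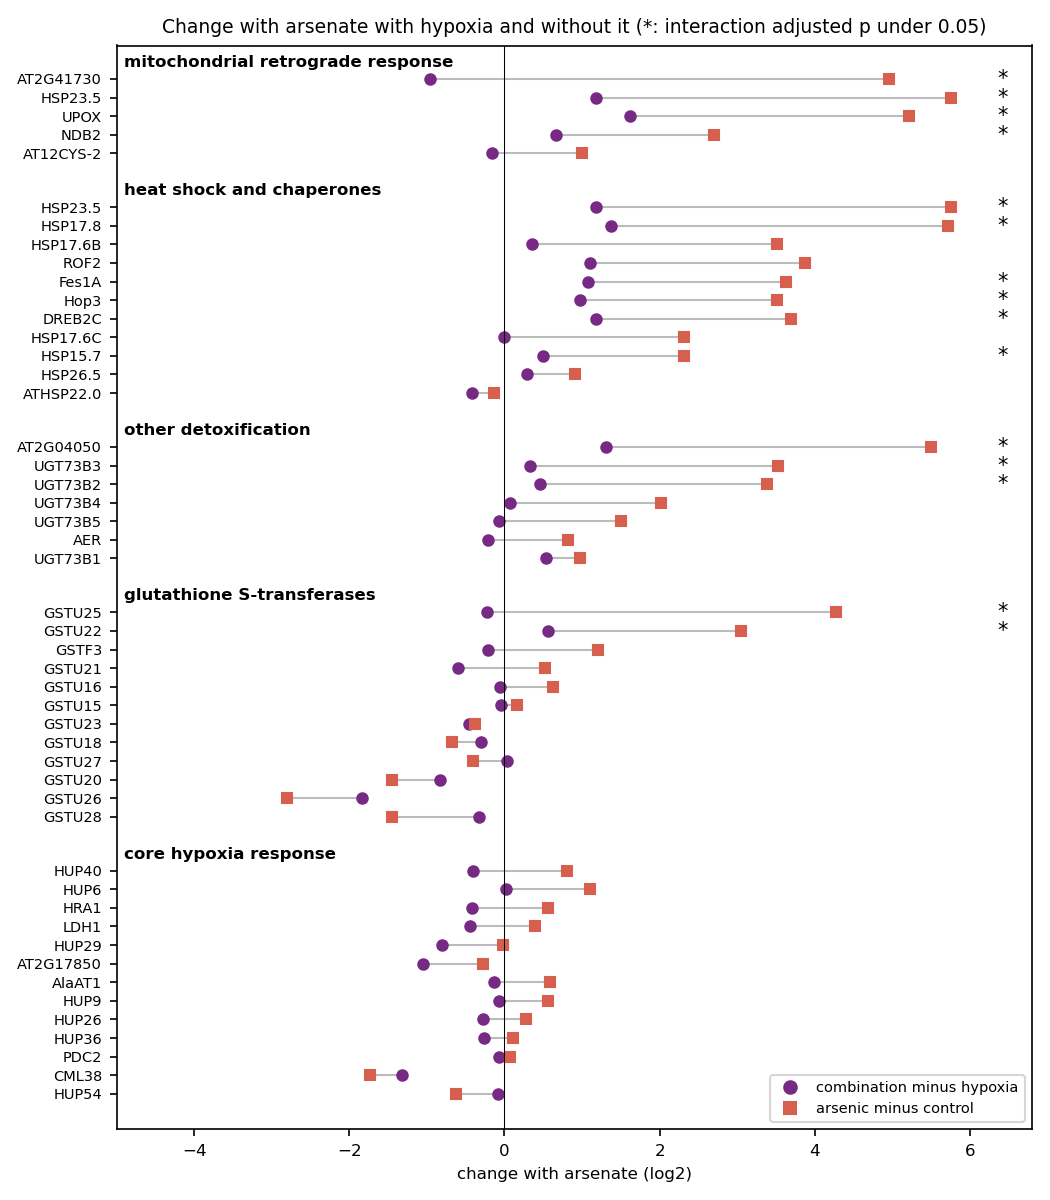
Change with arsenate (x axis, log2 difference of group means of 3 arrays) with hypoxia (circles, combination minus hypoxia) and without it (squares, arsenic minus control) for every measured member of 5 gene lists, with an asterisk where the interaction passed. The circles of the 4 passing retrograde genes lie between -0.96 and 1.62, and their squares between 2.70 and 5.75.

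In the second pattern arsenate raised a gene without hypoxia and the gene did not pass under hypoxia alone. Of 881 genes with those calls, 68 had a negative interaction (7.72%), the glutathione S-transferase GSTU25 and the glucosyltransferase UGT73B2 among them. The median change of the 68 against control was 0.37 in the combination, 1.77 with arsenate and 0.40 in hypoxia. All 68 passed as lower in the combination than with arsenate alone. That difference is the interaction plus the change under hypoxia, so the choice of these genes fixes much of it. In the combination against control 50 of the 68 did not pass. Over all genes the combination was higher than arsenic for 5.33% and lower for 6.67% (12% in all), and higher than hypoxia for 1.88% and lower for 1.58% (3.46% in all). GSTU25 (AT1G17180), of the tau class of glutathione S-transferases, had signals of 4.45, 3.65 and 3.1 in the combination, 8.02, 6.48 and 8.27 with arsenate, 4.86, 4.16 and 2.87 in hypoxia and 3.49, 3.72 and 2.75 in the control. The arsenic arrays were the high ones, and the other groups overlapped. The interaction was -4.50 (SE 0.77, adjusted p = 0.00850), and the change with arsenate was -0.23 with hypoxia (adjusted p = 0.860), against 4.27 without it (adjusted p = 0.000192).

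The glutathione S-transferase list had 12 measured genes, of which GSTU25 and GSTU22 (AT1G78340, -2.49, adjusted p = 0.00611) passed and 10 did not (list median -0.14). GSTL3 (AT5G02790), a lambda-class enzyme outside that list, also passed (-1.32, adjusted p = 0.00621; 7.32, 7.20 and 7.23 in the combination, 8.46, 8.35 and 8.55 with arsenate). Of 7 genes in the list of other detoxification, 2 rose in the combination, all rose with arsenate alone and 3 had a negative interaction (list median -1.94). UGT73B2 (AT4G34135), a glucosyltransferase, had signals of 4.56, 3.51 and 3.32 in the combination, 6.59, 5.58 and 7.16 with arsenate, 3.85, 3.17 and 3.01 in hypoxia and 3.07, 2.98 and 3.12 in the control. Its interaction was -2.93 (SE 0.54, adjusted p = 0.0125), and that of its neighbour UGT73B3 (AT4G34131) was -3.19 (adjusted p = 0.0217). These 2 genes lie side by side and are close copies, so their probes may share signal. Among 51 measured UGT genes, the only other one to pass was UGT87A2 (AT2G30140, -3.25, adjusted p = 0.00388), which rose in all 3 treated groups. AT2G04050 had an interaction of -4.19 (SE 0.57, adjusted p = 0.00255) and rose by 3.49 in the combination, 5.50 with arsenate and 2.19 in hypoxia. GR1 (AT3G24170), a glutathione reductase that renews the reduced thiol, had an interaction of -1.20 (adjusted p = 0.00659); with UPOX it made 2 of 7 measured genes of the antioxidant list (median -0.23).

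OCT1 (AT1G73220), an organic cation and carnitine transporter, had the smallest adjusted p of the named genes. It gave 3.44, 3.69 and 3.48 in the combination, 6.76, 6.87 and 6.84 with arsenate, 4.10, 3.79 and 3.97 in hypoxia and 3.63, 3.38 and 3.70 in the control. Its arsenic arrays lay close together and stood far above the rest. The interaction was -3.67 (SE 0.20, adjusted p = 3.03e-06), 12.7-fold below the expectation, and it passed whichever array was left out.

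Locus-coded genes held the largest departures in both of these patterns. AT1G60750 had signals of 5.56, 5.96 and 4.81 in the combination, 9.97, 8.24 and 9.89 with arsenate, 5.93, 4.49 and 4.98 in hypoxia and 4.36, 3.89 and 4.39 in the control. The combination and hypoxia arrays overlapped, and the arsenic arrays stood above both. The interaction of AT1G60750 was -4.84 (SE 0.65, adjusted p = 0.00234). AT1G55230, of the same pattern, had an interaction of -5.34 (SE 1.23, adjusted p = 0.0368). In AT1G55230 hypoxia array 1 read 9.12, the others 5.01 and 5.42, and its call was kept in 4 of the 12 fits with an array left out.

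AT4G32950 showed the plainest form of the first pattern, in which both treatments raised a gene and the combination went no further. Its signals were 9.15, 8.74 and 9.44 in the combination, 9.57, 8.10 and 9.57 with arsenate, 8.18, 8.82 and 10.06 in hypoxia and 3.32, 3.48 and 3.46 in the control. The treated groups overlapped one another and stood well above the control. Against control it rose by 5.69 in the combination, 5.66 with arsenate and 5.60 in hypoxia, and the interaction was -5.57 (SE 0.63, adjusted p = 0.000847). Its additive expectation of 14.68 exceeds 12.8, the highest signal of any gene on any array. AT2G38823 (-4.80, adjusted p = 5.54e-05) and AT4G12735 (-4.71, adjusted p = 0.000412) also rose in every treated group, by 4.16 and 4.34 in the combination, 5.17 and 5.24 with arsenate, and 3.79 and 3.81 in hypoxia. The expectation of AT2G38823 was 13.50, also over that highest signal, and that of AT4G12735 was 12.22. The gene next to AT4G32950 is GAMMA-VPE (AT4G32940), which encodes a vacuolar processing enzyme, and it passed in the same direction (-0.96, adjusted p = 0.0264). Of 198 negative genes with a measured neighbour 18 had one that passed in the same direction, as had 16 of 192 positive genes. Over all genes 1.43% passed as negative and 1.34% as positive. The share of all genes with such a neighbour was not counted, and whether neighbours passed together was not tested.

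Some genes with a negative interaction have known roles in nutrient uptake. NRT2.5 (AT1G12940), a high-affinity nitrate transporter induced by nitrogen shortage, had signals of 4.99, 4.41 and 4.06 in the combination, 6.12, 4.48 and 5.92 with arsenate, 5.31, 5.02 and 6.12 in hypoxia and 3.28, 3.07 and 3.55 in the control. Every treated array was above the control arrays, and the combination mean was the lowest of the treated ones. Its interaction was -3.20 (SE 0.57, adjusted p = 0.00990). BTSL1 (AT1G74770), an E3 ubiquitin ligase that restrains the iron deficiency response, had signals of 10.71, 10.78 and 10.79 in the combination, 10.71, 11.00 and 11.06 with arsenate, 10.41, 10.60 and 11.08 in hypoxia and 8.88, 9.32 and 9.33 in the control. The 3 treated groups overlapped, and the interaction was -1.68 (SE 0.27, adjusted p = 0.00608). BTSL1 was the 1 of 8 measured iron deficiency genes to pass (list median -1.16). SDI2 (AT1G04770), induced by sulfur deficiency, had -1.47 (adjusted p = 0.0456). UBC32 (AT3G17000), a ubiquitin-conjugating enzyme of the endoplasmic reticulum, had -0.84 (adjusted p = 0.0294), and the U-box protein gene PUB54 (AT1G01680) had -1.94 (adjusted p = 0.00448), although PUB54 was higher in the combination than with arsenate by 1.27 (adjusted p = 0.00159). Of 8 measured ATG autophagy genes, ATG8B (AT4G04620, -1.48, adjusted p = 0.0351) and ATG8H (AT3G06420, -1.42, adjusted p = 0.0228) passed. ATG8 proteins coat the membrane of the autophagosome. Neither passed under hypoxia alone, with 0.60 for ATG8B (adjusted p = 0.0835) and -0.46 for ATG8H (adjusted p = 0.124). ATG8H fell by 0.96 in the combination against control (adjusted p = 0.00383) and rose by 0.92 with arsenate alone (adjusted p = 0.00820).

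**Figure D4:**
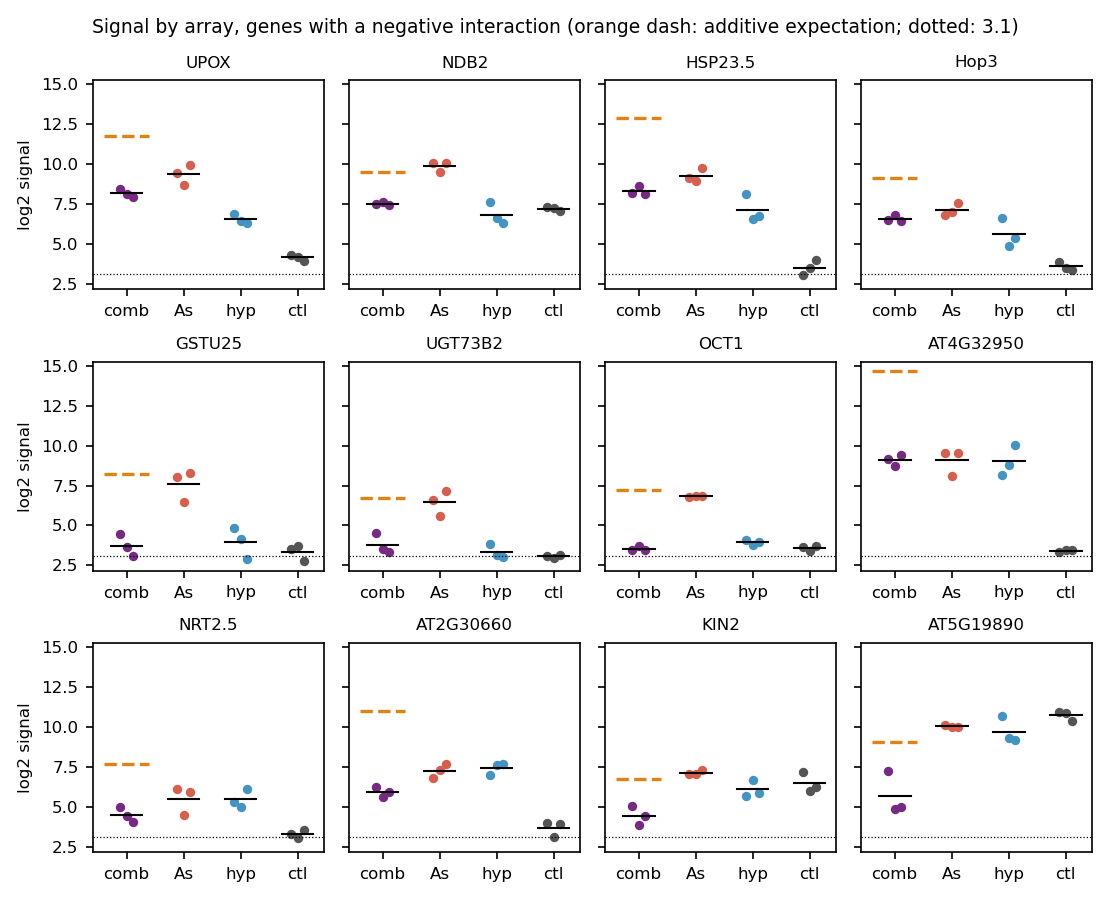
Log2 signal of each array (y axis) in the combination, arsenic, hypoxia and control groups (x axis, 3 points each, bar at the mean) for 12 genes with a negative interaction, with the additive expectation dashed and 3.1 dotted. In every panel the 3 combination points lie below the dashed line, which stands at 11.76 for UPOX and at 7.21 for OCT1.

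In 9 of the 457 genes arsenate passed with opposite signs with and without hypoxia, and in 8 of them it had raised the gene without hypoxia. AT2G30660 had signals of 6.27, 5.60 and 5.95 in the combination, 6.84, 7.29 and 7.68 with arsenate, 7.02, 7.60 and 7.71 in hypoxia and 4.02, 3.11 and 3.90 in the control. The combination stood above the control and below both single treatments without overlap. Arsenate changed AT2G30660 by -1.50 in hypoxic roots (adjusted p = 0.0161), against 3.59 in roots that were not hypoxic (adjusted p = 8.69e-06), with an interaction of -5.09 (SE 0.41, adjusted p = 5.54e-05). Its neighbour AT2G30670 had an interaction of -4.03 (adjusted p = 0.00312). EXLB1 (AT4G17030), an expansin-like cell wall protein gene, had signals of 4.68, 4.80 and 4.78 in the combination, 8.08, 7.47 and 7.80 with arsenate, 6.76, 6.38 and 6.41 in hypoxia and 7.44, 6.86 and 6.52 in the control. The combination arrays were the low ones. The change with arsenate was -1.76 with hypoxia (adjusted p = 0.00344), against 0.84 without it (adjusted p = 0.0202), and the interaction was -2.61 (SE 0.32, adjusted p = 0.00119). EXLB1 lies outside the naming rule and was chosen after its values were seen. The change with hypoxia passed with opposite signs with and without arsenate in 53 of the 457 genes, and in 39 of them hypoxia had raised the gene without arsenate. AT2G30660 was one of these, with -1.33 with arsenate (adjusted p = 0.00933), against 3.76 without it (adjusted p = 2.87e-06). Outside the 9 genes, the change with arsenate passed with the same sign in both settings for 14, only without hypoxia for 391 (197 rose and 194 fell), only with hypoxia for 30 and in neither for 13.

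In 6 negative and 12 positive genes neither single treatment passed. KIN2 (AT5G15970), a cold and abscisic acid responsive gene, had signals of 5.05, 3.86 and 4.41 in the combination, 7.09, 7.05 and 7.30 with arsenate, 5.70, 6.68 and 5.90 in hypoxia and 7.20, 6.03 and 6.22 in the control. The combination arrays lay below all others, and KIN2 fell by 2.04 in the combination against control (adjusted p = 0.000776). Its interaction was -2.32 (SE 0.49, adjusted p = 0.0264), and the call was kept in 5 of the 12 fits with an array left out. AT5G19890, chosen after its values were seen, had signals of 7.25, 4.87 and 5.02 in the combination, 10.17, 9.99 and 10.03 with arsenate, 10.70, 9.30 and 9.17 in hypoxia and 10.97, 10.89 and 10.37 in the control. It fell by 5.03 in the combination against control (adjusted p = 2.12e-05), with an interaction of -3.33 (SE 0.76, adjusted p = 0.0359) that was kept in 3 of those 12 fits. On the positive side AT3G46480 had signals of 5.11, 6.21 and 5.36 in the combination, 3.67, 4.49 and 3.82 with arsenate, 4.31, 4.17 and 4.22 in hypoxia and 4.56, 4.39 and 4.52 in the control. Only the combination arrays stood above the control, by 1.07 (adjusted p = 0.00834), and the interaction was 1.82 (SE 0.37, adjusted p = 0.0217).

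Of 1295 genes that rose under hypoxia and did not pass with arsenate, 14 passed with a negative interaction (1.08%, against 1.43% of all genes). None of them passed with a positive one, against 1.34% of all genes. The change under hypoxia enters the interaction with a minus sign, so the choice of these genes fixes part of both counts. BGLU32 (AT5G24550), a beta-glucosidase, had signals of 4.38, 3.71 and 4.86 in the combination, 3.89, 2.99 and 2.86 with arsenate, 6.75, 6.50 and 6.15 in hypoxia and 2.65, 2.34 and 2.53 in the control. It rose by 1.81 in the combination, against 3.96 in hypoxia, and the interaction was -2.90 (SE 0.43, adjusted p = 0.00411). WRKY22 (AT4G01250), a transcription factor of the early submergence and defence response, had 7.03, 6.94 and 6.67 in the combination, 7.29, 6.90 and 7.09 with arsenate, 8.18, 8.54 and 8.36 in hypoxia and 7.69, 7.34 and 7.39 in the control. It was below the control in the combination and above it in hypoxia, with an interaction of -1.10 (SE 0.24, adjusted p = 0.0266) that was kept in 5 of the 12 fits with an array left out.

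None of the 13 measured core hypoxia genes passed for the interaction. As 2.76% of all genes passed, the lack of a call in so short a list says little. Their median interaction was -0.72, against 0.01 over all genes. Against control 12 of the 13 rose in the combination and all 13 in hypoxia, while 1 rose and 1 fell with arsenate. HUP9 (AT5G10040), a hypoxia-responsive gene of unknown function, had signals of 11.43, 11.61 and 11.61 in the combination, 4.72, 3.57 and 3.82 with arsenate, 11.04, 11.90 and 11.93 in hypoxia and 3.48, 3.24 and 3.70 in the control. The combination and hypoxia arrays overlapped, and the interaction was -0.64 (SE 0.41, adjusted p = 0.488), which does not show additivity. HAC1 (AT2G21045), the arsenate reductase of the outer root, had signals of 9.62, 9.03 and 9.20 in the combination, 9.15, 9.74 and 9.75 with arsenate, 10.26, 10.76 and 10.40 in hypoxia and 10.21, 10.21 and 10.46 in the control. It fell in both arsenate-treated groups against control and its interaction was -0.44 (SE 0.29, adjusted p = 0.504). None of 63 measured genes of the plastid genome and none of 3 reference genes passed, against 2.76% of all genes. At that share the lack of a call in sets of these sizes also says little.

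On the positive side the 2 genes with the largest departures outside the floor set, which is defined further on, had been lowered by arsenate without hypoxia and stood near the control in the combination. AT3G46490, next to AT3G46480, had signals of 5.76, 6.63 and 5.59 in the combination, 3.25, 3.68 and 3.64 with arsenate, 4.98, 5.01 and 5.40 in hypoxia and 5.62, 6.02 and 6.05 in the control. Its arsenic arrays were the low ones, and the combination overlapped the control. AT3G46490 also fell under hypoxia, so it is counted in the class that fell with each treatment. The interaction was 3.23 (SE 0.35, adjusted p = 0.000691), although the additive expectation of 2.76 lies where the arrays resolve little. AT4G39675 had signals of 9.32, 9.59 and 9.34 in the combination, 4.63, 6.58 and 5.23 with arsenate, 10.15, 11.05 and 10.40 in hypoxia and 9.65, 9.92 and 9.80 in the control. The change of AT4G39675 with arsenate was -1.11 with hypoxia (adjusted p = 0.131), against -4.31 without it (adjusted p = 1.69e-05). The interaction was 3.20 (SE 0.54, adjusted p = 0.00799). On unlogged signals, where additivity means that signals add, it was -14.8 signal units and did not pass. TET2 (AT2G19580), a tetraspanin membrane protein gene, was higher by 0.60 in the combination (adjusted p = 0.0393) and fell by 0.94 with arsenate alone (adjusted p = 0.00585), with an interaction of 1.27 (adjusted p = 0.0326).

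The larger positive class fell with each treatment alone and, by its medians, about as far with both. Over its 181 genes the median change against control was -1.51 in the combination, -1.43 with arsenate and -1.52 in hypoxia. In the combination 163 of the 181 fell against control, and 18, AT3G46490 among them, did not pass. AT5G14120 had signals of 7.80, 7.82 and 7.41 in the combination, 7.49, 7.95 and 7.30 with arsenate, 7.95, 8.50 and 6.94 in hypoxia and 10.54, 10.58 and 10.67 in the control. The 3 treated groups overlapped, all far below the control, and the interaction was 2.89 (SE 0.44, adjusted p = 0.00448). AGO7 (AT1G69440), the Argonaute protein that loads miR390 to make trans-acting small RNAs, had signals of 5.67, 5.90 and 6.03 in the combination, 5.60, 5.88 and 5.92 with arsenate, 5.91, 5.58 and 5.77 in hypoxia and 7.32, 7.28 and 7.22 in the control. It showed the same overlap of treated groups, with an interaction of 1.58 (SE 0.21, adjusted p = 0.00221). FD (AT4G35900), a bZIP transcription factor known for flowering, had 1.55 (adjusted p = 0.0125), the mitotic Aurora kinase AUR1 (AT4G32830) 1.13 (adjusted p = 0.0328) and the beta-tubulin TUB7 (AT2G29550) 0.99 (adjusted p = 0.0274).

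A few cell wall and sugar transport genes were in this class, and a repair enzyme family was split. None of 13 measured EXPA and 5 measured EXPB expansin genes passed. As 2.76% of all genes passed, the lack of a call in so few genes says little. EXLB1 had a negative interaction. Of 9 measured XTH genes, which cut and rejoin xyloglucan in the wall, XTH21 (AT2G18800) and XTH16 (AT3G23730) passed, both with a positive interaction (family median 1.01). XTH21 had signals of 3.41, 3.39 and 3.86 in the combination, 4.17, 4.86 and 4.81 with arsenate, 4.46, 4.23 and 3.30 in hypoxia and 7.14, 7.49 and 7.41 in the control. The interaction of XTH21 was 2.29 (SE 0.40, adjusted p = 0.00929), against an additive expectation of 1.26. The sugar transporters SWEET17 (AT4G15920, 1.23, adjusted p = 0.0377) and SWEET11 (AT3G48740, 1.70, adjusted p = 0.0207) passed among 14 measured SWEET genes. The family median was 0.09, and 9 of the 14 had a treated mean under 3.1. SWEET11 had a treated mean under 3.1, as had XTH16. Of 6 measured MSRB genes, whose enzymes repair oxidised methionine, MSRB5 (AT4G04830, 1.91, adjusted p = 0.00659) and MSRB4 (AT4G04810, 1.56, adjusted p = 0.0218) passed with a positive interaction and MSRB3 (AT4G04800, -1.05, adjusted p = 0.0409) with a negative one. Their signals were 3.85, 4.04 and 4.32 for MSRB5 and 7.65, 7.91 and 7.98 for MSRB3 in the combination, 3.77, 4.62 and 4.57 for MSRB5 and 8.58, 8.28 and 8.63 for MSRB3 with arsenate, 4.25, 4.74 and 4.47 for MSRB5 and 7.77, 8.32 and 7.91 for MSRB3 in hypoxia, and 6.57, 6.74 and 6.65 for MSRB5 and 7.78, 7.50 and 7.52 for MSRB3 in the control. MSRB5 was lower in every treated array than in the control, and MSRB3 was highest with arsenate.

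**Figure D5:**
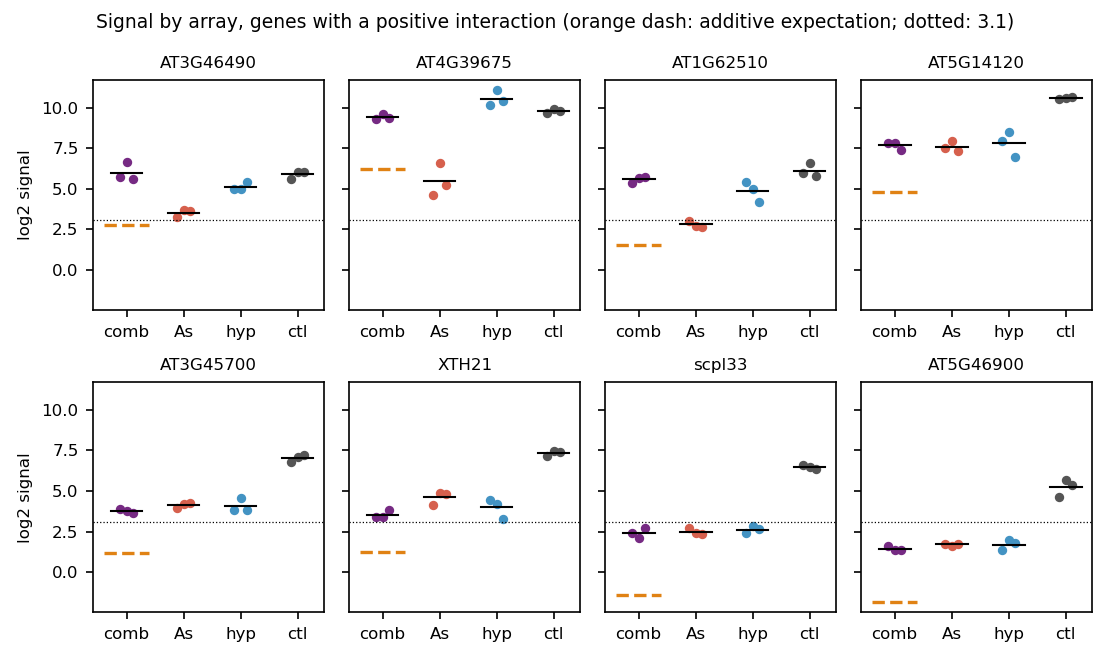
Log2 signal of each array (y axis) in the combination, arsenic, hypoxia and control groups (x axis, 3 points each, bar at the mean) for 8 genes with a positive interaction, with the additive expectation dashed and 3.1 dotted. The combination points lie above the dashed line in every panel, and for scpl33 and AT5G46900 all treated points lie under 3.1 while the dashed line is at -1.38 and -1.82.

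Some positive calls lay where the arrays cannot follow a further fall. The first quartile of signal was 3.06 to 3.18 on the arrays, and a treated mean under 3.1 was counted as a floor case. There were 39 floor cases among the 221 positive genes and 15 among the 236 negative ones, and 27.0% of all genes had such a mean. In 17 of the positive genes and 2 of the negative ones all 3 treated means were under 3.1. The additive expectation itself was under 3.1 for 90 positive genes (40.7%) and for 1 negative gene, against 22.8% of all genes, and for 8 positive genes it was under 0. In 51 positive genes the expectation was under 3.1 although every treated mean was at or over it, so a floor on the measured means alone leaves them in. Neither mean nor expectation was under 3.1 for 131 positive and 221 negative genes. Of the 181 positive genes that fell with both treatments 94 met that stricter condition.

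Floor cases took different forms. The carboxypeptidase-like gene scpl33 (AT3G17180) had signals of 2.40, 2.14 and 2.71 in the combination, 2.72, 2.41 and 2.33 with arsenate, 2.41, 2.85 and 2.64 in hypoxia and 6.62, 6.50 and 6.37 in the control. All treated arrays were under 3.1, so its interaction of 3.79 (SE 0.25, adjusted p = 1.75e-05) compares values that have no clear order. AT5G46900 (3.28, adjusted p = 0.000412) was of the same form, with every treated array under 2.0 in log2 signal. AT1G62510 had signals of 5.36, 5.67 and 5.75 in the combination, 3.02, 2.73 and 2.68 with arsenate, 5.42, 4.99 and 4.17 in hypoxia and 5.98, 6.60 and 5.78 in the control. Here only the arsenic mean was under 3.1. AT1G62510 was higher in the combination than with arsenate by 2.79 (adjusted p = 6.52e-05), and the interaction was 4.05 (SE 0.41, adjusted p = 0.000412). The positive genes nearest the limit were AT4G22460 and AT4G36230 with lowest treated means of 3.05 and 3.08, and KOM and AT1G25422 with 3.15 and 3.17.

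The arrays of a group did not contribute evenly. Among the 236 negative genes arsenic array 3 was the highest arsenic array for 136 and arsenic array 2 the lowest for 156. Among the 221 positive genes control array 1 was the lowest control array for 123. The part of these differences between arrays in the interaction was not tested. Some calls named above rested on single arrays. SWEET11 was lost without arsenic array 3 or control array 3, HSP15.7 without arsenic array 3 or control array 2, Hop3 without any of those 3, and MSRB4 without combination array 3, arsenic array 1 or control array 2. AT3G46480 was lost without arsenic array 1, arsenic array 3, control array 2 or control array 3, UGT73B3 without any of those or combination array 2, and GAMMA-VPE without arsenic array 2 or 3 or control array 1 or 3. NDB4, ATG8H and TUB7 were kept in 6 of the 12 fits with an array left out, TET2, ATG8B and UBC32 in 4, MSRB3 and AUR1 in 3, and SDI2 and SWEET17 in 2, and leaving out any 1 of arsenic array 1, arsenic array 3 and control array 2 lost each of these 10.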

How the data were processed

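Roots of 4 groups with 3 arrays each were used, grouped by sample title. The authors deposited log2 signals, 1 row per probe set, made with RMA, per the submitters' processing notes. RMA corrects background, equalises the distributions of the arrays and summarises probes. The same notes name Transcriptome Analysis Console 3.1 and versions 1.4 and 1.4.1 of Affymetrix Expression Console. They were used as deposited, without a filter or pseudocount. The precision is limited by the number of arrays. Of 38408 rows, 16722 named 1 gene, 759 several and 20927 were unlisted. Of the first, 16574 matched a RefSeq gene table (TAIR10.1, used for names and neighbours), and 148 did not. The highest-mean row of each gene left 16550 genes (146 had several rows). Where the table gives only a locus code, names such as UPOX, HUP9, HSP23.5 and HAC1 are those of the gene lists written for this work. The array's genome build is not given in the sources used here, so no coordinates are printed.

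A single linear model with 1 mean per group was fitted to the 12 arrays (limma 3.58.1 under R 4.3.3, eBayes moderation). Tests were two-sided, p-values were adjusted by Benjamini and Hochberg's method within each comparison, and 0.05 was the threshold. SEs are limma's. The estimates of the fit were checked on simulated arrays with planted interactions. Those arrays had no signal floor, so the check does not bear on calls near the floor. The 22 gene lists (459 entries, 96 genes measured), members and naming rule were chosen with earlier results of these data known. The naming rule took, among passing genes without a treated mean under 3.1, the 8 largest of each sign and the 6 largest with a symbol, the 3 largest floor cases of each sign, up to 2 passing genes per list or symbol family, the largest of each pattern class of at least 10 genes, and HAC1, GSTU25, UPOX and HUP9. Some were left out for length, and genes named outside it to fill a count, or as neighbours or relatives of a named gene, were chosen after their values were seen. No set was tested. A planned count of promoter motifs was not run, as no promoter sequences were used here. Replicate numbers were not taken as pairs: deviations of same-numbered arrays correlated at -0.0789 to 0.305, over 0.1 in 6 of 18 pairs. The alternatives were a replicate block, other scalings and array weights, unlogged signals, filters, other row choices, no moderation and each array left out.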

Additional observations from a re-analysis of the deposited data

Results flagged for a closer look

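The interaction tests whether the change with arsenate differed with and without hypoxia. By limma at an adjusted p of 0.05 that change was lower with hypoxia than without it for 236 genes and higher for 221. Of the genes named by rule, AT2G30660 had a change with arsenate that passed in both settings with opposite signs, with an interaction of -5.09.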

How the results depend on the processing

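Of the 457 calls none changed sign under any alternative other than unlogged signals, where 2 did. With the replicate number as a replicate block, which the design does not call for, 552 genes passed (281 negative and 271 positive), 427 of the 457 among them, and 21 of 36 arrays' best matches carried their own number. Array weights gave 886 genes (423 negative, 463 positive; 235 rose with both treatments, 136 rose with arsenate alone, 329 fell with both). All rows of the table gave 244 (134, 110; 91, 36, 98), where the adjustment ran over more tests, and no moderation gave 196 (103, 93; 72, 25, 75). Unlogged signals gave 684, with 468 positive, and 56, 129 and 432 in those classes; 343 of the 457 calls were kept, and AT4G39675 turned to -14.8 signal units without passing. Re-centring arrays on their medians shifted the median interaction of all genes to -0.07 and gave 270 negative and 157 positive calls. Without 1 array the totals ran from 213 to 502, negative calls from 123 to 273, positive from 90 to 237, and the classes from 78 to 164, 29 to 76 and 78 to 184. Floor cases among negative calls were 25 at a floor of 3.5, 1 by the additive expectation and 8 by the combination mean; among positive calls 90 had an expectation under the floor. Of the 67 named genes that passed, 42 passed with each array left out in turn. The cause of these shifts was not tested.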
